A study of Homo sapiens with 12 samples.

Results

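MycER activation alone (shNT + OHT) was compared with CDK12 silencing alone (shCDK12), each a single departure from the same parental state, to ask which early replicating regions (ERRs) the separate perturbations share and which belong to only 1 of them. The material was U2OS, a human osteosarcoma cell line, expressing MycER, a fusion of Myc to the ligand-binding part of the estrogen receptor that 4-hydroxytamoxifen (OHT) switches on. The shNT + OHT cells carried a virally delivered non-targeting hairpin and received OHT (300 nM, 40 h). The shCDK12 cells carried a hairpin against CDK12, and their labels name no OHT. Common to all groups were doxycycline (1 µg/mL) to induce the hairpin, nocodazole (100 ng/mL, 8 h) to collect mitotic cells, and a release for 24 h into EdU (25 µM) and hydroxyurea (2 mM). Each condition had 3 samples, merged by the authors into 1 list of regions, so no difference below has a replicate check or a p-value, and all intervals are 95% intervals of counting error only. How far CDK12 was silenced cannot be read from these DNA libraries, and MycER is an exogenous fusion in a tumour line, which limits it as a model of Myc in normal cells. Restricted to the autosomes, 4556 ERRs of shNT + OHT and 4799 ERRs of shCDK12 were examined, 9355 of the 18185 regions in the 4 lists of the series, all chromosomes included.

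Eukaryotic chromosomes replicate in a set temporal order: gene-rich, transcribed domains are copied first, and gene-poor ones late. EdU is a thymidine analogue built into new DNA, and hydroxyurea starves forks of nucleotides, so the label stays close to the origins that fire first. Myc is a transcription factor that binds very many promoters, and when overactive it speeds S-phase entry and raises the chance that replication forks meet transcribing polymerases. CDK12 is a kinase that phosphorylates elongating RNA polymerase II and is known for sustaining expression of long DNA repair genes. The regions called here are broad, coordinates are those of the deposited lists (hg19, counted from 1), and no sequence is printed because no genome of that build was used here.

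Most ERRs were common to both perturbations. With OHT, 3899 regions (85.6%, Wilson interval 84.5 to 86.6) overlapped a shCDK12 region by at least 1 bp, and of the shCDK12 regions 4327 (90.2%, 89.3 to 91.0) overlapped one of shNT + OHT. The lists shared 420 Mb of the 519 Mb covered by either, a Jaccard index of 0.810. Merged across both lists, 3761 of 4890 places held a region of both, which is 93.1% of the combined length. The remainder was 657 regions specific to shNT + OHT, 14.4% of its list and 4.74% of its length, and 472 regions specific to shCDK12, 9.84% of its list and 2.84% of its length. These percentages are the background for the counts of specific regions that follow. The lists ended at different lowest scores, 99.9 in shNT + OHT and 66.1 in shCDK12. At a common minimum score, 80.2% of shNT + OHT regions and 94.8% of shCDK12 regions were shared. The counts that follow use the full lists, and absence means only that no region was called.

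Specific regions were narrow and weakly labelled. With OHT the median specific region was 32.8 kb wide, next to 70.8 kb for a shared one, and held 35.1 reads per kb next to 58.4. With silencing it was 26.8 kb wide next to 62.8 kb, and held 11.9 reads per kb next to 18.02. In shNT + OHT 98.02% of the specific regions scored below the median of their list, and in shCDK12 93.4% did. Most lay apart from the other list. The median gap to the nearest region of the other list was 124.8 kb for shNT + OHT (quartiles 40.4 and 422.8) and 68.6 kb for shCDK12 (26.7 and 202.6), and 77 and 92 specific regions, respectively, lay within 20 kb of one. Far from any shared ground, 67 regions of shNT + OHT and 20 of shCDK12 lay over 1 Mb from any region of the other list.

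The 5 widest regions found with OHT and not with silencing lay in or across known genes. The widest, on chromosome 2 (46151201 to 46332000, 180.8 kb), lay inside PRKCE, which encodes protein kinase C epsilon, and held 8160 reads (45.1 per kb). It was met by 2 regions of shNT and by 1 wide region of shCDK12 + OHT. The next lay inside CAMTA1, a calmodulin-binding transcription activator, on chromosome 1 (7431601 to 7569600, 138 kb, 5708 reads) and was met by a region of shNT at 12.8 reads per kb and of shCDK12 + OHT at 24.9. The third, on chromosome 4 (1247201 to 1356000, 108.8 kb, 3812 reads), covered MAEA, a subunit of an E3 ubiquitin ligase. It was absent from shNT and present in shCDK12 + OHT, as was the fifth, on chromosome 6 (27179201 to 27278000, 98.8 kb, 3304 reads), which covered PRSS16, a serine protease gene. The fourth, on chromosome 20 (57356001 to 57462800, 106.8 kb, 3650 reads), took in part of GNAS, the gene of the stimulatory G protein alpha subunit, and was met in both remaining lists. All 5 were thus present in shCDK12 + OHT, and 3 of 5 in shNT. The segment, not always the gene, was specific: elsewhere shCDK12 had 2 regions in PRKCE (12.2% of the gene) and 1 in CAMTA1 (9.75%). It had none in MAEA, GNAS or PRSS16.

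The 5 widest regions found with silencing and not with OHT showed another pattern: all 5 were absent from shNT and all 5 were present in shCDK12 + OHT. The widest, on chromosome 7 (4149201 to 4255600, 106.4 kb, 1379 reads, 12.96 per kb), lay inside SDK1, a cell adhesion gene, where shCDK12 + OHT had 30.04 reads per kb. On chromosome 2 (44308001 to 44400400, 92.4 kb, 1021 reads) the region reached the start of PPM1B, a protein phosphatase gene. On chromosome 9 (34251201 to 34330000, 78.8 kb, 962 reads) it covered the whole of KIF24, a kinesin gene, and lay 1.6 kb from the nearest shNT + OHT region. The others lay on chromosome 7 (97628801 to 97707200, 1034 reads) and chromosome 18 (3452801 to 3527200, 842 reads). Their densities, from 11.05 to 13.2 reads per kb, were all below the shCDK12 median of 17.99 over matched regions. Elsewhere in these genes, shNT + OHT had 1 region in SDK1 (5.83% of the gene) and 1 in PPM1B (2.02%), and none in KIF24.

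Presence in the lists that took no part in choosing the regions was then counted over the whole sets. Among the 472 regions specific to shCDK12, shCDK12 + OHT held 332 (70.3%, Wilson interval 66.1 to 74.3) and shNT held 46 (9.75%, 7.39 to 12.8). Among the 657 specific to shNT + OHT, the same lists held 288 (43.8%, 40.1 to 47.7) and 212 (32.3%, 28.8 to 35.9). Shared regions with low scores were found more often in both: among those of shNT + OHT below the median score, 68.1% were in shNT and 92.0% in shCDK12 + OHT, and among those of shCDK12 72.8% and 92.1%. In shCDK12, 313 specific regions (66.3%) were present in shCDK12 + OHT only, against 27 present in shNT only. In shNT + OHT the split was 218 (33.2%) and 142 (21.6%), and 227 (34.6%) were in neither list, with a median width of 26 kb. Limited to specific regions at least 30 kb wide, a limit chosen after seeing the data, 88.6% of the shCDK12 set and 52.8% of the shNT + OHT set were met in shCDK12 + OHT, and 7.07% and 41.2% in shNT. The shNT list is the shortest, with 3796 autosomal regions over 441.5 Mb against 4676 over 546.5 Mb in shCDK12 + OHT. The lowest score was 145.5 in shNT and 136.7 in shCDK12 + OHT, against 99.9 in shNT + OHT and 66.1 in shCDK12. Weak regions of the compared lists could thus fall below the limits of the remaining lists. The parts of list length, covered length and score limit in these shares were not tested.

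**Figure D1:**
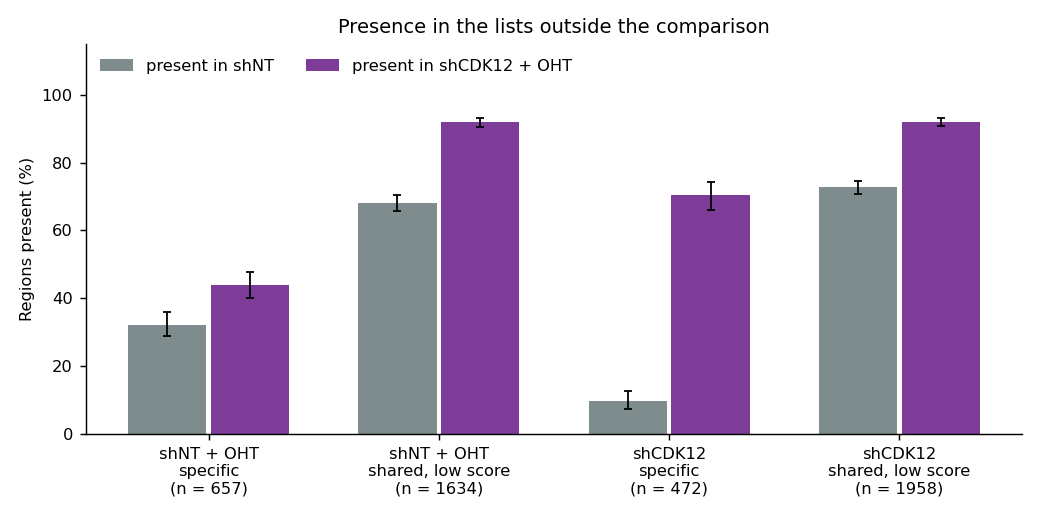
Bars give the percentage of regions of each set that overlapped a region of shNT (grey) or of shCDK12 + OHT (purple), with Wilson 95% intervals as black lines. Regions specific to shCDK12 were present in shCDK12 + OHT in 70.3% and in shNT in 9.75%, whereas the sets of shared regions with low scores stood at 68.1% or more in both lists.

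The specific regions were unevenly spread over the chromosomes. On chromosome 13, 27 of 82 shNT + OHT regions were specific (32.9%, Wilson interval 23.7 to 43.7, against 14.4% overall), and 5 of 63 shCDK12 regions (7.94%, 3.44 to 17.3). Shares of 20% or more were also seen with OHT on chromosomes 4 (21.6%), 6 (22.5%), 7 (20.3%) and 21 (21.4%). The lowest share with OHT was on chromosome 17 (7.69%, 4.92 to 11.8), followed by chromosome 15 (7.87%, 4.74 to 12.8). Chromosome 15 was at the same time the highest in shCDK12, with 34 of 211 regions specific (16.1%, 11.8 to 21.7, against 9.84% overall). Chromosome 20 was the lowest in shCDK12, with 5 of 150 (3.33%, 1.43 to 7.57), next to 14.5% with OHT. The share was higher in shNT + OHT than in shCDK12 on 19 of 22 autosomes, with chromosomes 15, 18 and 22 as the exceptions, and the intervals of the lists were separate on chromosomes 7, 13 and 20 only. In covered length, shNT + OHT covered more sequence on 20 of 22 autosomes, by a factor of up to 1.34 on chromosome 13, and less on chromosome 15 (0.976) and chromosome 22 (0.996).

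**Figure D2:**
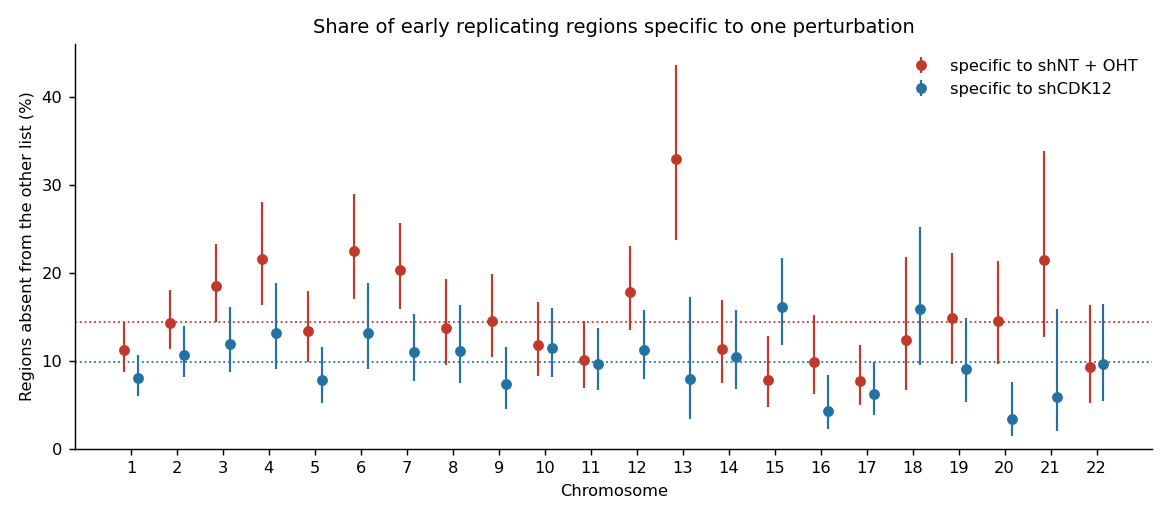
Each point is the percentage of a chromosome's ERRs that had no overlap in the other list, for shNT + OHT (red) and shCDK12 (blue), with Wilson 95% intervals, and dotted lines mark the autosomal shares of 14.4% and 9.84%. Chromosome 13 stands out with OHT at 32.9%, and chromosome 15 has the opposite order, at 7.87% and 16.1%.

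Position along the chromosome separated the lists as well. Among ERRs whose centre lay under 2 Mb from a chromosome end, 33 of 190 shNT + OHT regions were specific (17.4%, 12.6 to 23.4), and 8 of 198 shCDK12 regions (4.04%, 2.06 to 7.77). Over 50 Mb from an end, the shares were 15.6% (13.6 to 17.8) and 13.8% (11.97 to 15.8). The shCDK12 share thus rose inwards, from 4.04% through 7.92%, 8.39% and 9.01% to 13.8% in 5 distance classes. The interval over 50 Mb lay above that of 20 to 50 Mb (7.81 to 10.4), and the other neighbouring classes overlapped. The classes also differed in width, with a median matched region of 72.2 kb under 2 Mb from an end and 51.6 kb over 50 Mb. They differed in chromosomes too, since the shortest have no position over 50 Mb from both ends. The parts of width and chromosome in the rise were not tested. The shNT + OHT share ranged from 13.2% to 17.4% with overlapping intervals. In windows of 5 Mb, the highest count of specific regions was 7 of 33 in shCDK12, on chromosome 7 (90000001 to 95000000). All of those were at most 19.2 kb wide. With OHT 3 windows tied at 6: chromosome 13 (30000001 to 35000000, 6 of 10 regions), chromosome 17 (30000001 to 35000000, 6 of 20) and chromosome 5 (170000001 to 175000000, 6 of 21).

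Shared ground was often cut differently. In 473 cases 1 region of shNT + OHT overlapped at least 2 regions of shCDK12, up to 5, and in 133 cases the reverse held, up to 3. The region of the nuclear RNA genes MALAT1 and NEAT1 on chromosome 11 spanned 2204.4 kb in shNT, 2618 kb with OHT and 1570.4 kb in shCDK12, but 2928.4 kb when silencing and OHT were combined. Pairs of regions that overlapped each other and no further region of the opposite list were taken as matched. There were 3209, which is 70.4% of the shNT + OHT list and 66.9% of the shCDK12 list. Among them 59.3% were wider with OHT, 35.3% wider in shCDK12 and 5.42% equal, with a median log2 width ratio of 0.04.

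Read density (reads per kb of region) was compared over the matched regions after dividing each list by its median, 57.4 reads per kb in shNT + OHT and 17.99 in shCDK12. The values below give the distribution of label among regions, not its total amount: the unscaled medians differed 3.19-fold, and library sizes were not used here. The log2 ratio of scaled density, shNT + OHT over shCDK12, had an SD of 0.40 across regions, with 5th and 95th percentiles of -0.56 and 0.58. A difference of 1.5-fold was passed by 303 regions, 9.44% of those compared: 160 were higher with OHT (4.99%) and 143 higher in shCDK12 (4.46%). With lists scaled by summed reads over summed width, which moves the median ratio from -0.03 to -0.17, the split was 85 and 295, so the balance of directions changed with the scaling. Among 2482 regions at least 30 kb wide, rescaled to their own median, it was 110 and 46 (6.29% in either direction).

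**Figure D3:**
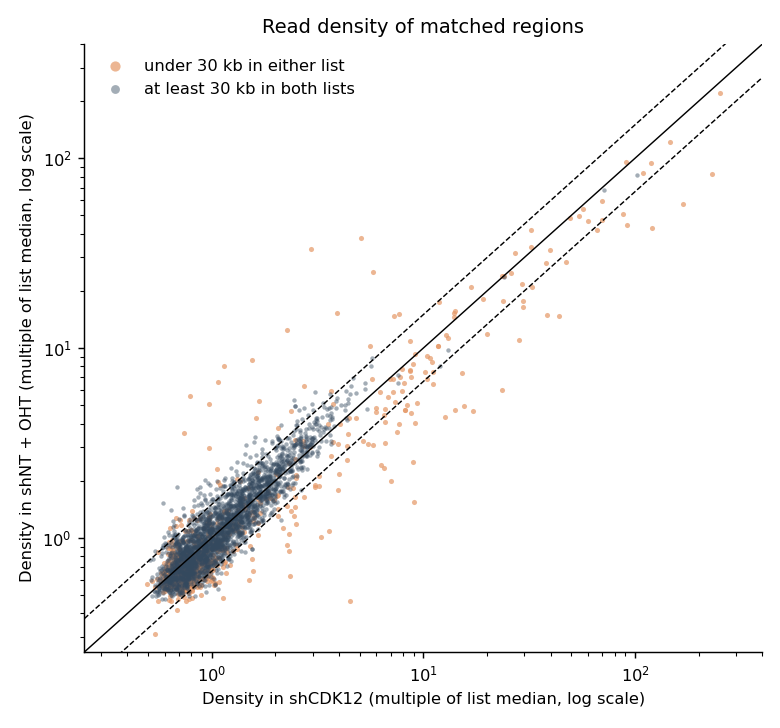
Each of 3209 points is a matched region, with its density in shCDK12 (x) and shNT + OHT (y) as a multiple of the list's median, both on log scales. The solid line marks equality and the dashed lines 1.5-fold, which 9.44% of the regions pass, many of them narrow regions (orange) of very high density.

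The ratio moved with the width of the region. Regions under 10 kb had a median log2 ratio of -0.30 (n = 176), those of 10 to 30 kb -0.21 (n = 354), those of 30 to 60 kb -0.08, those of 60 to 100 kb -0.01, those of 100 to 200 kb 0.07, and those over 200 kb 0.19 (n = 320). Across all matched regions Spearman's rho of mean width and ratio was 0.35, a description of regions that share the same pair of libraries, and width also enters the density itself. Before scaling, shNT + OHT had 2.59 times the density of shCDK12 in regions under 10 kb and 3.65 times in those over 200 kb. Width went with density itself. Median densities in shNT + OHT and shCDK12 were 39.2 and 14.3 reads per kb at 10 to 30 kb and 122 and 32.7 over 200 kb. Regions under 10 kb were the densest, at 268.75 and 107.5. Weak regions lie near the lowest density that each list called, and the part of that limit in the ratio was not tested. In the widest matched region, at the end of chromosome 19 (364801 to 2193200 with OHT), which holds STK11, GPX4 and POLRMT, the log2 ratio was 0.46 (counting interval 0.45 to 0.47). In the next widest, on chromosome 22 (38777601 to 40135600, with RPL3 and ATF4) and chromosome 7 (908801 to 2197600, with INTS1 and MAFK), it was 0.15 and 0.18, below the median of the class over 200 kb. Next to chromosome ends the ratio was also higher, with a median of 0.18 under 2 Mb from an end (n = 124) and -0.05 over 50 Mb away (n = 847). Taken relative to the median of the same width class, an alternative chosen after seeing the data, these were 0.14 and 0.00. Differences between chromosomes were not taken into account here.

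**Figure D4:**
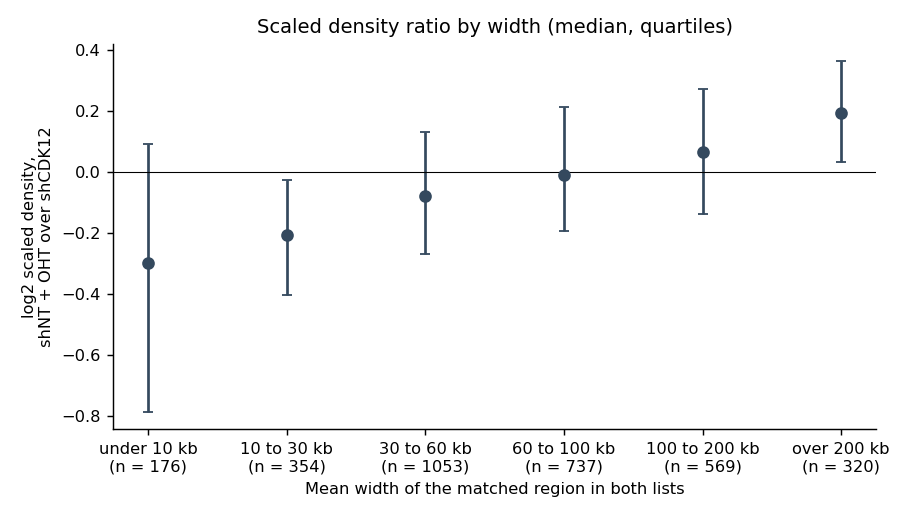
Points are medians and lines quartiles of the log2 ratio of scaled density (shNT + OHT over shCDK12) in 6 classes of mean width. The medians rise from -0.30 under 10 kb to 0.19 over 200 kb, while the quartiles of neighbouring classes overlap.

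The extreme ratios came mostly from very narrow regions. Of the 8 highest, 5 were regions of 0.4 to 4.8 kb with OHT that spanned 4 to 24.4 kb in shCDK12, and when reads replaced density all 5 changed sign. The 8 lowest were at most 10.8 kb wide with OHT, and their unscaled densities differed little between the lists, at ratios of 0.975 to 1.14. An example on chromosome 1 (564401 to 570400) held 19673 reads with OHT and 18258 with silencing. This interval is known for holding a nuclear copy of mitochondrial DNA. Chromosome M itself held 1413690 and 1576695 reads, an unscaled ratio of 0.897. Whether such reads come from labelled nuclear DNA was not tested.

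Because narrow regions filled the extremes, the 8 highest and 8 lowest among the 2482 matched regions at least 30 kb wide in both lists are described, a choice made after values were seen. Densities are given as multiples of the list's median. The ERR over TGFBI, which encodes an extracellular matrix protein, on chromosome 5 (135294801 to 135467200 with OHT) stood at 5.13 for shNT, 5.35 for shNT + OHT, 2.45 for shCDK12 and 1.73 for shCDK12 + OHT. Both silenced lists were below both non-targeting ones. The log2 ratio of shNT + OHT over shCDK12 was 1.13 (counting interval 1.09 to 1.17), from 52941 and 6970 reads. A region reaching into TNC, the gene of the matrix protein tenascin-C, on chromosome 9 (117747201 to 117795600) stood at 0.90, 1.41, 0.64 and 0.76 in the same order, a log2 ratio of 1.13 (0.99 to 1.28). Its neighbour over TNFSF8, a cytokine gene of the TNF family, stood at 1.36, 1.86, 0.88 and 1.06.

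Near the start of chromosome 11 (675201 to 954800) lies a gene-dense ERR with TALDO1, RPLP2 and CD151, which act in sugar metabolism, the ribosome and cell adhesion. Its densities were 3.21, 3.42, 1.60 and 1.40, a log2 ratio of 1.09 (1.06 to 1.13). On chromosome 3 (45049201 to 45288400) a region with CDCP1 and TMEM158 stood at 2.37, 3.08, 1.45 and 1.56, and on chromosome 21 (35303601 to 35452800) one that ends in MRPS6, a mitochondrial ribosome gene, at 1.98, 2.02, 0.93 and 1.10. The highest ratio of all broad regions, 1.45 (1.33 to 1.57), was on chromosome 6 (14684001 to 14764800), with 1.18, 1.86, 0.68 and 0.90. In all 8, both non-targeting lists were above both silenced lists. The choice of regions fixed shNT + OHT above shCDK12, and only the order of shNT and shCDK12 + OHT was free of it.

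In shNT + OHT, the 8 lowest ratios came from regions of fewer reads, 1032 to 3047 against 3910 to 54838 for the 8 highest. In shCDK12 the reads overlapped, 611 to 1750 for the lowest and 371 to 7454 for the highest. Density in shNT + OHT ran from 29.8 to 71.2 reads per kb for the lowest, next to 35.1 for the median specific region of that list. In shCDK12 it ran from 10.5 to 44.0 for the highest, next to 11.9. Some of these extremes thus lay at densities as low as those of regions called in 1 list only. The part of that limit in the ratios was not tested. A region on chromosome 3 (123677201 to 123760400 with OHT) had a log2 ratio of -0.997 (-1.09 to -0.91), from 2572 and 1750 reads, and stood at 0.57, 0.54, 1.08 and 0.75, again in the order shNT, shNT + OHT, shCDK12, shCDK12 + OHT. One across part of INTS2, a subunit gene of the Integrator complex that processes RNA polymerase II transcripts, on chromosome 17 (59982801 to 60019200) stood at 0.81, 0.87, 1.56 and 1.15. One between NCOA1, a nuclear receptor coactivator gene, and CENPO, a kinetochore gene, on chromosome 2 (24987201 to 25020800) stood at 0.78, 0.88, 1.55 and 1.15. One between IQGAP1 and CRTC3 on chromosome 15 (91042801 to 91085600) stood at 1.19, 1.24, 2.13 and 1.57. In VCL, the vinculin gene, on chromosome 10 (75814001 to 75872000) the region stood at 0.52 with OHT, 0.94 in shCDK12 and 1.40 in shCDK12 + OHT, and shNT had no region there. In the 5 of these 8 that shNT held, both non-targeting lists were below both silenced ones. Here too the choice of regions fixed the order of shNT + OHT and shCDK12.

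**Figure D5:**
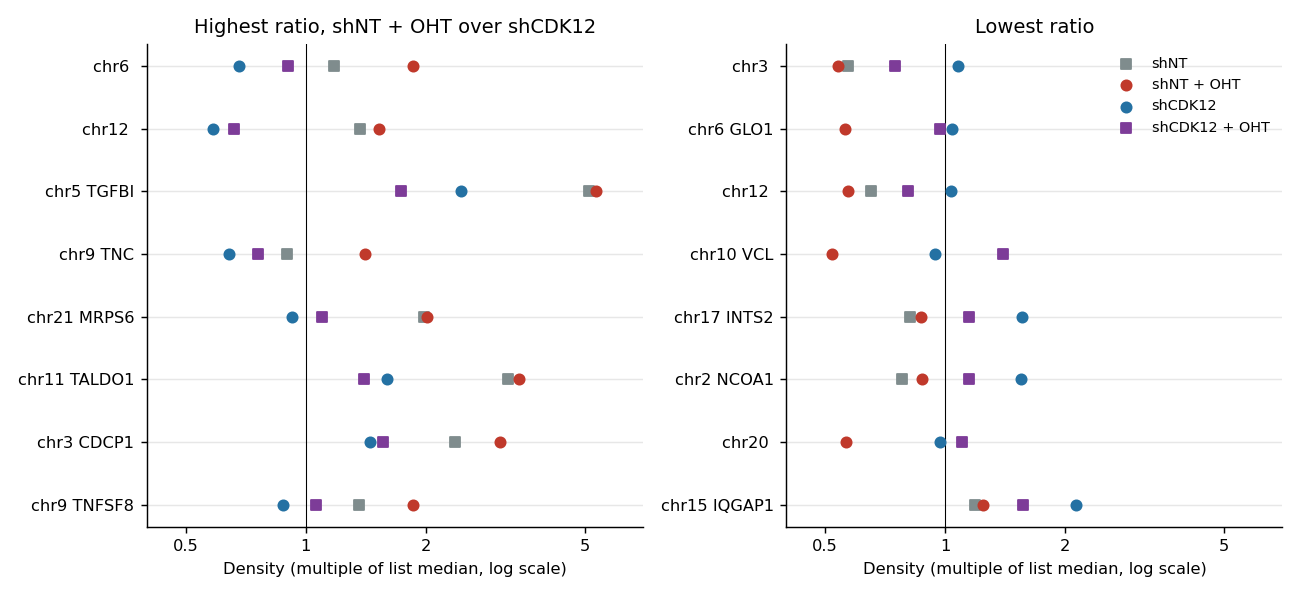
For the 8 broad regions with the highest (left) and the 8 with the lowest (right) ratio, points give read density as a multiple of the list's median on a log scale in shNT (grey squares), shNT + OHT (red), shCDK12 (blue) and shCDK12 + OHT (purple squares), with a missing point where a list had no region. On the left both non-targeting lists lie above both silenced ones, as at TGFBI with 5.13 and 5.35 against 2.45 and 1.73. The choice of regions fixed the order of the red and blue points.

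The order of lists with and without the CDK12 hairpin was then counted over all broad regions that matched one to one in all 4 lists, using only shNT and shCDK12 + OHT, which the choice of regions did not involve and which differ from each other by both perturbations. Of 1837 such regions, 41.9% (Wilson interval 39.7 to 44.2) had a higher scaled density in shNT than in shCDK12 + OHT, with a median log2 ratio of -0.09. Among the 104 that were at least 1.5-fold higher in shNT + OHT than in shCDK12, 93 were higher in shNT (89.4%, 82.0 to 94.0), with a median of 0.42. Among the 24 that were at least 1.5-fold higher in shCDK12, 1 was (4.17%, 0.74 to 20.2), with a median of -0.46. Regions are not independent replicates, and the intervals do not cover the spread between cultures. Including narrow regions, the shares were 85.6% of 132 (78.6 to 90.6) and 35.9% of 92 (26.8 to 46.1), next to 43.0% of all 2220. The interval of the set higher in shCDK12 then took in the share over all, so that set stood apart only among broad regions.

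Differences in density also ran along the chromosomes. Neighbouring broad regions under 1 Mb apart had like ratios relative to their width class, with Pearson's r of 0.23 and Spearman's rho of 0.23 over 1943 pairs from the same libraries, a weak relation. By chromosome, the median log2 ratio was lowest on chromosome 15 (-0.14) and chromosome 4 (-0.105) and highest on chromosomes 20 and 19 (both 0.08), all within the quartiles of each other. Relative to width class chromosome 15 was still lowest at -0.12 and chromosome 4 moved to -0.02, while chromosomes 20 and 19 moved to 0.03 and 0.05 and chromosome 21 was highest at 0.11. Of 134 matched regions on chromosome 15, 0 were at least 1.5-fold higher with OHT and 12 higher in shCDK12, next to 4.99% and 4.46% over all matched regions. Chromosomes 19 and 22 also had 0 higher with OHT, of 72 and 73, and chromosome 7 had 17 of 181 higher in shCDK12. Among 113 windows of 5 Mb with at least 8 broad matched regions, the lowest median was on chromosome 15 (55000001 to 60000000, -0.31, n = 11) and the highest on chromosome 16 (85000001 to 90000000, 0.40, n = 8), where 8 of 8 regions were above 0.

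Last, 54 genes in 5 groups were looked up in both lists. Their hg19 positions were entered from general knowledge, and all 54 lie on the same chromosome in the RefSeq table of the newer build, 50 of them with a length within 10%. Genes were scored as present where a region overlapped any part of them. Over all 54, 34 were in both lists and 16 in neither. The share over all genes of the genome was not counted, so whether a group departs from it was not tested. Of 18 Myc targets, 14 were in both lists, among them NCL and NPM1 of the nucleolus, ODC1 and CAD of polyamine and pyrimidine synthesis, and CDK4 of the cell cycle. TERT, the catalytic subunit gene of telomerase, was the only one of the 54 present with OHT alone: a region on chromosome 5 (1254001 to 1286400, 957 reads, 29.5 per kb) covered 77.4% of it, and the 3 remaining lists had none. HSPD1, a mitochondrial chaperone gene, was met only in shCDK12 (chromosome 2, 198335601 to 198362400, 329 reads), with no region in the remaining lists. GNL3, a nucleolar GTPase gene, was met in shCDK12 (262 reads) and shCDK12 + OHT (1058 reads). FBL was in neither list of the pair. The regions at TERT, HSPD1 and GNL3 had 0.51 to 0.76 times the median density of their lists.

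Of 14 DNA repair genes, 8 were in both lists, among them BRCA1, ATR, FANCI, FANCD2, FANCA and BLM, and 6 in neither, among them BRCA2, ATM, CHEK1, PALB2 and BARD1. None was specific to 1 perturbation. The ERRs met only part of these genes, from 2.83% of ATR to 49.4% of FANCA with OHT. None of 8 long genes at common fragile sites, FHIT and WWOX among them, was met by a region of either list. Among genes with mapped origins, LMNB2 and TOP1 were in both lists and HBB was in neither. All 10 landmark genes were in both, CDK12 included. In the 14 genes whose regions matched one to one, the log2 ratio of scaled density ranged from -0.23 at CCND2 to 0.39 at CDKN1A, the gene of a cyclin-dependent kinase inhibitor. The median was 0.11 against -0.03 over all matched regions, and none passed 1.5-fold. Width was not taken into account here. With OHT these regions spanned 23.2 kb (CCND2) to 750.4 kb (CDKN1A), and matched regions over 200 kb had a median of 0.19.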

How the data were processed

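EdU-HU-seq libraries of U2OS-MycER cells were analysed from the deposited lists of broad regions, 1 per condition, called by the authors on merged reads of 3 replicates. The submitters' processing notes name BWA 0.6.2, SAMtools and SICER, with the builds hg19 and mm10, without roles. Control libraries, duplicate removal and calling thresholds are not given in the sources used here. The read count of a region was deposited as a whole number with no scaling for depth. The deposited score is the authors' own value per region, with no stated scale, and served only for ranking and 2 alternatives. Regions lie on 400 bp windows, and in no list did an autosomal region end past the hg19 chromosome length by more than a window. Reads in autosomal regions numbered 49994993 in shNT + OHT and 13220717 in shCDK12. They depend on what was called and are not library depth.

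Overlap required 1 bp. Density was the read count over the width, divided by the list's median over matched regions. Ratio intervals are exact (Clopper-Pearson) and shares have Wilson intervals, both covering counting error only, since reads without molecular identifiers need not be independent molecules. Named were the 5 widest specific regions of each list, the 8 highest and 8 lowest ratios with at least 200 reads in both lists, the 3 widest matched regions, the fullest 5 Mb windows, the extreme chromosomes and a list of 54 genes, some of which are not reported here. The genes named at those regions were added after values were seen (41 genes, 40 with a length within 10% of the RefSeq one). The comparison, the members and the lists were chosen with earlier results of these data known. The functions were tested on simulated lists. Alternatives covered the overlap rule, score limits, joining of neighbours, width, reads and scaling. Computation used scipy 1.17.1, pandas 2.3.3 and numpy 2.4.6 under Python 3.11.15, with figures from matplotlib 3.10.9.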

Additional observations from a re-analysis of the deposited data

Results flagged for a closer look

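The comparison was limited to autosomes, so signal on the chromosomes left out is given here as values. Chromosome M held 1413690 reads in shNT + OHT and 1576695 in shCDK12, a log2 ratio of -1.83 on the scale of the matched autosomal regions. On chromosome X 22 of 87 shNT + OHT regions were specific (25.3%) and 12 of 86 shCDK12 regions (13.95%), above the autosomal 14.4% and 9.84%, and shNT + OHT covered 1.34 times the length of shCDK12 there. The median log2 ratio of scaled density over 54 matched regions of chromosome X was -0.01.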

How the results depend on the processing

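No paired analysis was possible because each condition is 1 merged list, which also leaves no replicate to leave out. Under a reciprocal overlap of 50%, 75.7% of shNT + OHT regions and 71.8% of shCDK12 regions were shared. With a common minimum score they were 80.2% and 94.8%. The shCDK12 share was 88.7% above the median score, 91.9% after joining regions up to 100 kb apart and 91.1% for regions at least 10 kb wide, while the shNT + OHT share stayed within its interval under these. The Jaccard index was 0.831 after joining across 100 kb and moved by less than 0.01 otherwise. Against 303 matched regions past 1.5-fold, there were 880 with reads in place of density, 169 among regions of similar width in both lists, 63 at 2-fold and 156 at least 30 kb wide, the last chosen after seeing the data and rescaled to its own median. With reads in place of density, the ratio reversed at 5 narrow regions, to -0.11 (chromosome 8), -0.053 (chromosome 16), -0.48 and -0.83 (chromosome 17) and -0.49 (chromosome 12), whose widths differed between lists.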
